A study of Mus musculus with 16 samples.

Results

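The mRNAs of the cytosolic ribosomal proteins were followed through the hearts of mice that carried a cardiomyocyte-directed virus and underwent sham surgery or pressure overload. All 81 protein-coding genes of the count matrix with an Rpl or Rps symbol of the standard form, together with Rplp0, Rplp1, Rplp2, Rpsa and Rpl22l1, were included, out of 55573 genes in the matrix. Kinases and pseudogenes with similar symbols were left out. The study injected pups of wild-type mice subcutaneously at postnatal day 1 with AAV9-cTNT-GFP or AAV9-cTNT-CARDINAL, in which the cardiac troponin T promoter drives the insert in cardiomyocytes. CARDINAL is a cardiac long noncoding RNA, which the study examined for a part in protein synthesis. Male mice of both viruses then underwent Sham surgery or TAC (transverse aortic constriction), in which a ligature narrows the aorta and the left ventricle has to eject against a raised pressure. RNA from the apex of the heart was taken 4 weeks after surgery, selected for poly(A) and sequenced in single-end reads of 50 bases. Each virus was combined with each surgery, and each of these 4 groups, called AAV9-GFP Sham, AAV9-CARDINAL Sham, AAV9-GFP TAC and AAV9-CARDINAL TAC, held 4 mice. Vector and promoter are the same in both, so that all 16 mice carried AAV9. The age of the mice at surgery is not given in the sources used here.

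A cytosolic ribosome is built from a small subunit, which carries most proteins named Rps, and a large subunit, which carries most proteins named Rpl, around ribosomal RNA. Each protein is needed in nearly equal amounts, and most of their mRNAs begin with a run of pyrimidines, the 5′ terminal oligopyrimidine (TOP) tract, which ties their translation to the mTOR pathway. A few ribosomal proteins have a second gene. Rpl3l is the form of Rpl3 found in heart and skeletal muscle, Rpl22l1 and Rps27l are paralogs of Rpl22 and Rps27, and Rpl10l and Rpl39l are known mainly from the testis. Ribosome content rises as a heart enlarges under load, and whether the mRNAs of its proteins change after TAC and with CARDINAL is the question the 4 groups allow to be asked.

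The start of a TOP mRNA can be read from the genome. It is shown here for genes of the pairs that the results turn on, with Rplp0 and Rps6. Rpl3 is not shown, as no promoter sequence was matched to it. RefSeq promoter sequences on GRCm38.p6 matched 61 of the 81 genes by symbol. The first base of the transcript was C and each of the next 4 bases was C or T in 12 of the 61 (19.7%). Among 20591 genes matched in the same way, not restricted to protein-coding genes, the share was 2.33%. With a start allowed at any of the 5 bases to either side, the share was 45.9% against 18.7%, so the count depends on the exact base annotated as the start. The sequences below cover 15 bases before the annotated start and 15 bases from it, 5′ to 3′ on the strand of the gene. Capitals mark the unbroken run of C and T that begins at the start base.
Rpl3l, chr17:24727811-24727840, plus strand: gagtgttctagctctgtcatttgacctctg
Rps27, chr3:90213634-90213663, minus strand: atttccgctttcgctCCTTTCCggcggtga
Rps27l, chr9:66946071-66946100, plus strand: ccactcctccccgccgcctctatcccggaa
Rpl22, chr4:152325711-152325740, plus strand: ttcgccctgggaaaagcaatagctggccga
Rpl22l1, chr3:28805493-28805522, plus strand: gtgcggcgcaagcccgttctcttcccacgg
Rplp0, chr5:115559452-115559481, plus strand: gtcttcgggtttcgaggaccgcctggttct
Rps6, chr4:86857353-86857382, minus strand: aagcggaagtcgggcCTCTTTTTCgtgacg
Rps27 and Rps6 began with runs of 7 and 9 pyrimidines, and the other genes shown, paralogs or not, did not begin with a pyrimidine at the annotated base. With a start allowed at any of the 5 bases to either side, Rps27l and Rpl22l1 also matched, and Rpl3l, Rpl22 and Rplp0 did not. A match or its absence describes these letters only, and no measure of transcript starts was analysed here.

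Gene counts summed to 16441997 in AAV9-CARDINAL Sham replicate 4, the lowest, and to 21904589 in the highest mouse. The share of the 81 genes in these sums was 0.492% to 0.602%. Mitochondrially encoded genes took between 30.4% and 34.0%. CARDINAL, listed as Gm12295, lay between 18.3 and 93.9 CPM (counts scaled to a common library size) in the 8 AAV9-CARDINAL mice and between 3.42 and 7.24 CPM in the 8 AAV9-GFP mice, with no overlap. AAV9-CARDINAL TAC replicate 1 stood apart at 93.9 CPM, and results that rest on it are given with and without it below. The sampled tissue was ventricular by its markers, with a summed level of 8 ventricular cardiomyocyte markers of at least 29800 CPM in every mouse and of at most 2.53 CPM for 4 atrial markers. Of the 5 skeletal muscle markers, Myh1, Myh4 and Actn3 had 0 counts in all groups.

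Levels are given as CPM scaled by TMM (trimmed mean of M values), a factor per library that sets the bulk of genes level between mice. Values of single mice are listed in the order of the numbers in their labels. Reads from one gene can only be compared with those of another per length of transcript. On that scale, the ribosomal protein mRNAs of AAV9-GFP Sham hearts ran from 8.09 CPM per kilobase for Rpl22l1 to 250.1 for Rps15, a protein of the small subunit, with a median of 75.2 over all 81 genes. Rpl23a (207), Rplp1 (175), Rps9 (171) and Rplp0 (169) followed Rps15, so that mRNAs for both subunits and for the stalk were among the most abundant. These levels depend on the transcript chosen for each gene and on reads shared with pseudogenes. Rpl10l and Rpl39l had 0 counts in all 16 mice, where 3 counts, the level taken as the floor, correspond to between 0.137 and 0.182 CPM. The floor covers counting error only. Those 2 genes did not pass the filter on low counts, so 79 of the 81 were tested. The paralogs named for the testis were thus not detectable at this depth, and Rps4l was not analysed here. Rpl3l reached 101 CPM per kilobase in AAV9-GFP Sham hearts and Rpl3 29.3, so the muscle form was above Rpl3 by reads counted to each gene itself. Rps27l (21.8 CPM per kilobase) was far below Rps27 (143), and Rpl22l1 (8.09) was far below Rpl22 (135).

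TAC changed 4 of the 79 tested ribosomal protein mRNAs in AAV9-GFP hearts, and these were Rpl3, Rpl3l, Rps27l and Rpl22l1. Rpl3 and Rps27l rose, and Rpl3l and Rpl22l1 fell. All 4 belong to paralog pairs. The other 75 did not pass the test, and their log2 fold changes lay between -0.21 (Rpl23a) and 0.13 (Rps28) with a median of -0.00046. The 4 made up 5.06% of the ribosomal protein mRNAs tested, against a background of 17.4% of all 16857 tested genes that were called in this comparison (8.49% higher and 8.92% lower). A gene was called where the quasi-likelihood test of edgeR, fitted to the 16 mice together, gave a Benjamini-Hochberg adjusted p below 0.05. As the mRNA of a whole tissue was sequenced, fewer cells of a type and less RNA per cell cannot be told apart.

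**Figure D1:**
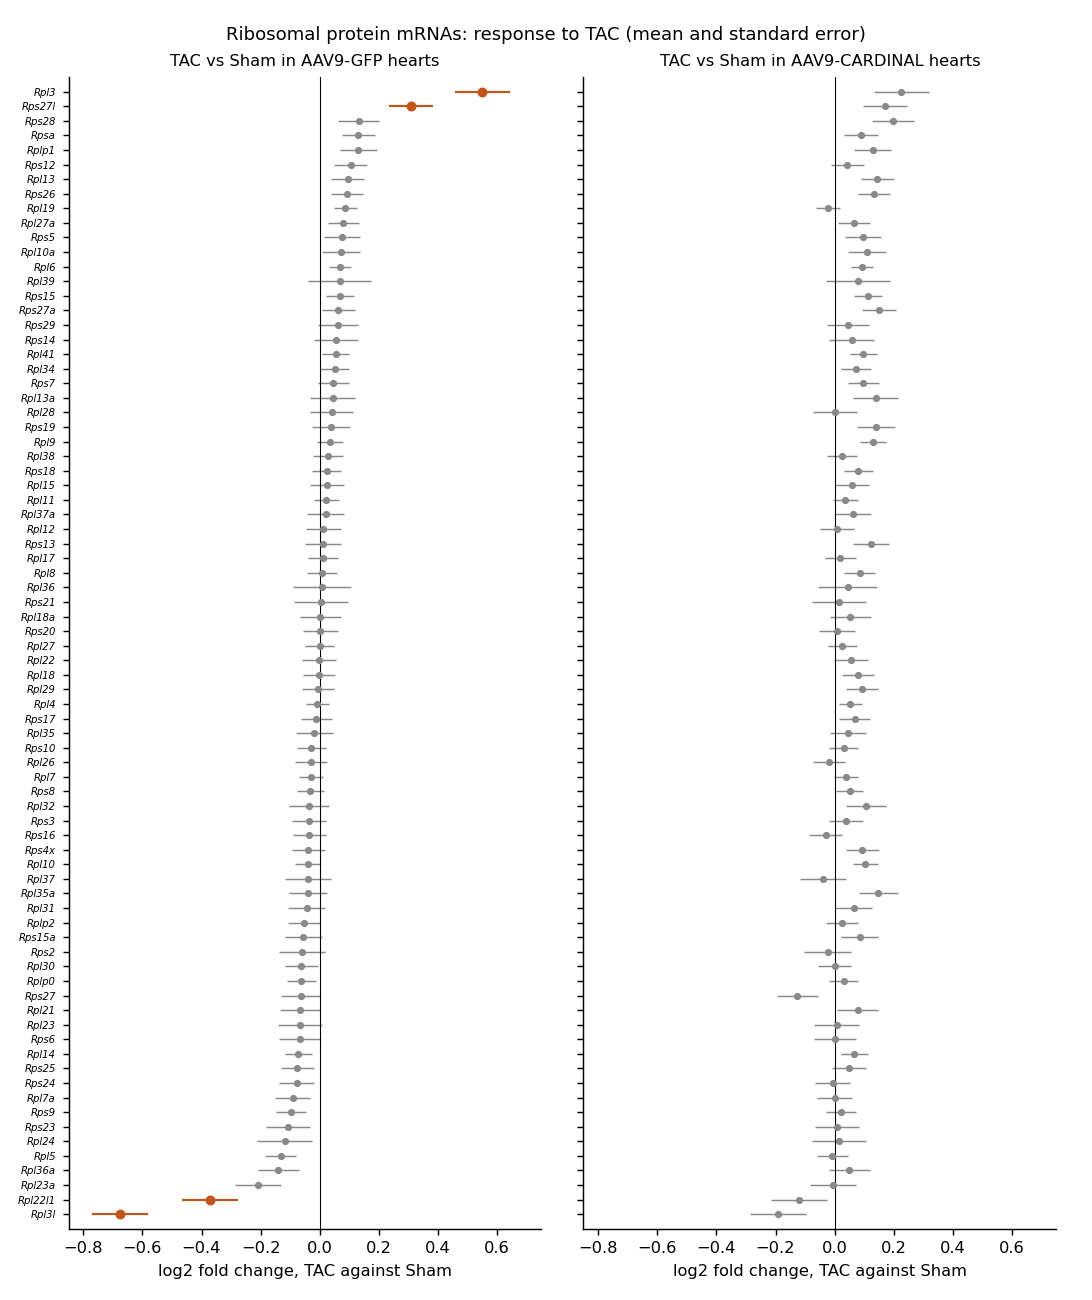
Log2 fold change of TAC against Sham, with its standard error, for 78 of the 79 tested ribosomal protein mRNAs in AAV9-GFP hearts (left) and in AAV9-CARDINAL hearts (right), ordered by the values on the left. Orange points have an adjusted p under 0.05: Rpl3 and Rps27l at the top and Rpl22l1 and Rpl3l at the bottom of the left panel, and none in the right panel.

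Rpl3l encodes the muscle form of a large-subunit protein that lies close to the catalytic centre of the ribosome. It lies on GRCm38 at chr17:24727820-24736143, plus strand, and no 50-base stretch of its transcript is found in another annotated gene. Rpl3l was at 146, 130.1, 139 and 143 CPM in the 4 AAV9-GFP Sham hearts and at 92.6, 77.2, 99.9 and 79.6 CPM in the 4 AAV9-GFP TAC hearts. Every TAC heart was below every Sham heart. The group means were 139.5 ± 6.88 and 87.3 ± 10.8 CPM (SD, n = 4 each), and the level fell by 37.4% (log2 fold change -0.68, standard error 0.096, edgeR adjusted p = 0.00026).

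Rpl3 itself, the form of the same protein in most tissues, lies at chr15:80077791-80091868, minus strand. It was at 39.4, 40.7, 38.7 and 39.5 CPM in AAV9-GFP Sham hearts and at 64.2, 59.5, 49.04 and 59.05 CPM in AAV9-GFP TAC hearts. Here every TAC heart was above every Sham heart. Rpl3 rose by 46.4% (log2 fold change 0.55, standard error 0.093, edgeR adjusted p = 0.000932). Of the 50-base stretches of Rpl3, 85.6% are also found in other genes, among them 26 pseudogenes. With the counts of such pseudogenes added to the gene they share most with, an alternative chosen after the data had been seen, the log2 fold change of Rpl3 was 0.55 with an adjusted p of 0.000737. The order of the pair after TAC depended on those counts. By its own counts Rpl3 was at 42.9 CPM per kilobase in AAV9-GFP TAC hearts, below Rpl3l at 63.5, and with the pseudogene counts, 45.6% of the sum over all mice, it was at 78.9 ± 8.74 and thus above Rpl3l. In AAV9-GFP Sham hearts it was at 53.8 ± 1.62 with those counts, below Rpl3l. Rpl3 and Rpl3l together were at 131 ± 4.65 CPM per kilobase in AAV9-GFP Sham and 106 ± 6.85 in AAV9-GFP TAC hearts, and with the pseudogene counts at 155 ± 3.47 and 142 ± 8.27 (SD, n = 4 each).

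**Figure D2:**
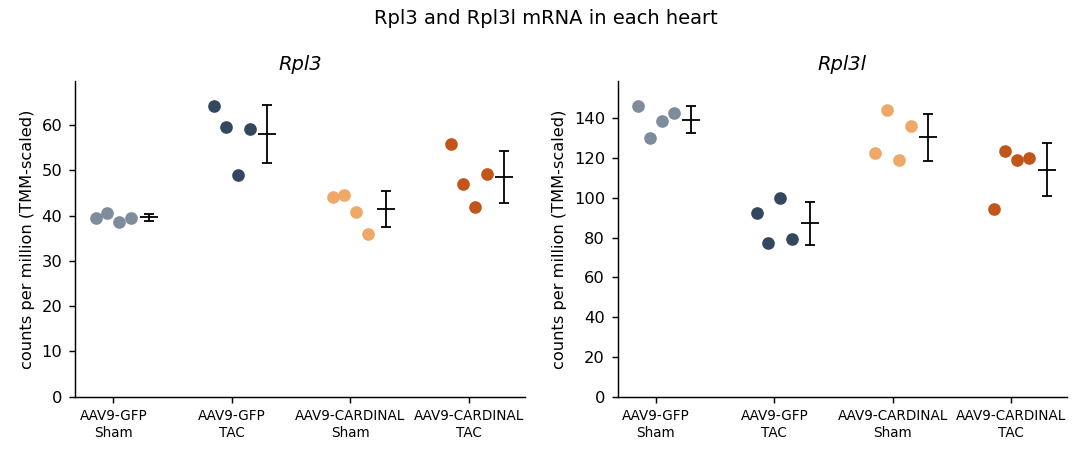
TMM-scaled CPM of Rpl3 (left) and Rpl3l (right) in each of the 16 hearts, with 1 point for each mouse and the group mean and SD beside it. The 4 AAV9-GFP TAC hearts lie above all AAV9-GFP Sham hearts for Rpl3 and below them for Rpl3l, and for Rpl3l the AAV9-CARDINAL TAC hearts lie between these ranges except for replicate 1.

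Rps27l, the paralog of the small-subunit protein Rps27 and a known target of p53, lies at chr9:66946086-66949516, plus strand. It was at 11.4, 10.7, 10.6 and 10.8 CPM in AAV9-GFP Sham and at 12.9, 14.7, 12.5 and 13.7 CPM in AAV9-GFP TAC hearts, again without overlap. It rose by 23.8% (log2 fold change 0.31, standard error 0.074, edgeR adjusted p = 0.00973). Rps27 was at 47.8, 49.1, 49.2 and 50.7 CPM and at 45.4, 47.7, 47.5 and 47.8 CPM in the same groups. The highest TAC heart (47.79 CPM) was just below the lowest Sham heart (47.81 CPM), and its log2 fold change of -0.063 (95% confidence interval -0.21 to 0.081) did not pass the test. The number of Rps27l counts per Rps27 count went from 0.222 ± 0.0122 to 0.286 ± 0.0182 (SD, n = 4 each). Nearly all of the 50-base stretches of Rps27 (98.7%) are shared with other genes, against 22.4% of those of Rps27l.

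Rpl22l1, the paralog of the large-subunit protein Rpl22, lies at chr3:28805436-28807424, plus strand. It was the lowest of the tested mRNAs per kilobase, with between 75 and 97 counts in each mouse of the 2 AAV9-GFP groups. It was at 4.26, 4.61, 4.26 and 4.74 CPM in AAV9-GFP Sham and at 3.52, 3.15, 3.59 and 3.57 CPM in AAV9-GFP TAC hearts, with no overlap. It fell by 22.7% (log2 fold change -0.37, standard error 0.095, edgeR adjusted p = 0.0139). This call was the least secure of the 4, with an adjusted p between 0.00923 and 0.128 over the alternatives, and it was lost with DESeq2 (0.0559) and without AAV9-GFP TAC replicate 3 (0.0528). Rpl22 was at 63.5, 63.1, 71.5 and 57.9 CPM in AAV9-GFP Sham and at 62.5, 63.8, 66.6 and 62.5 CPM in AAV9-GFP TAC hearts. These groups overlapped, and the log2 fold change of Rpl22 was -0.0030 (95% confidence interval -0.12 to 0.12).

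**Figure D3:**
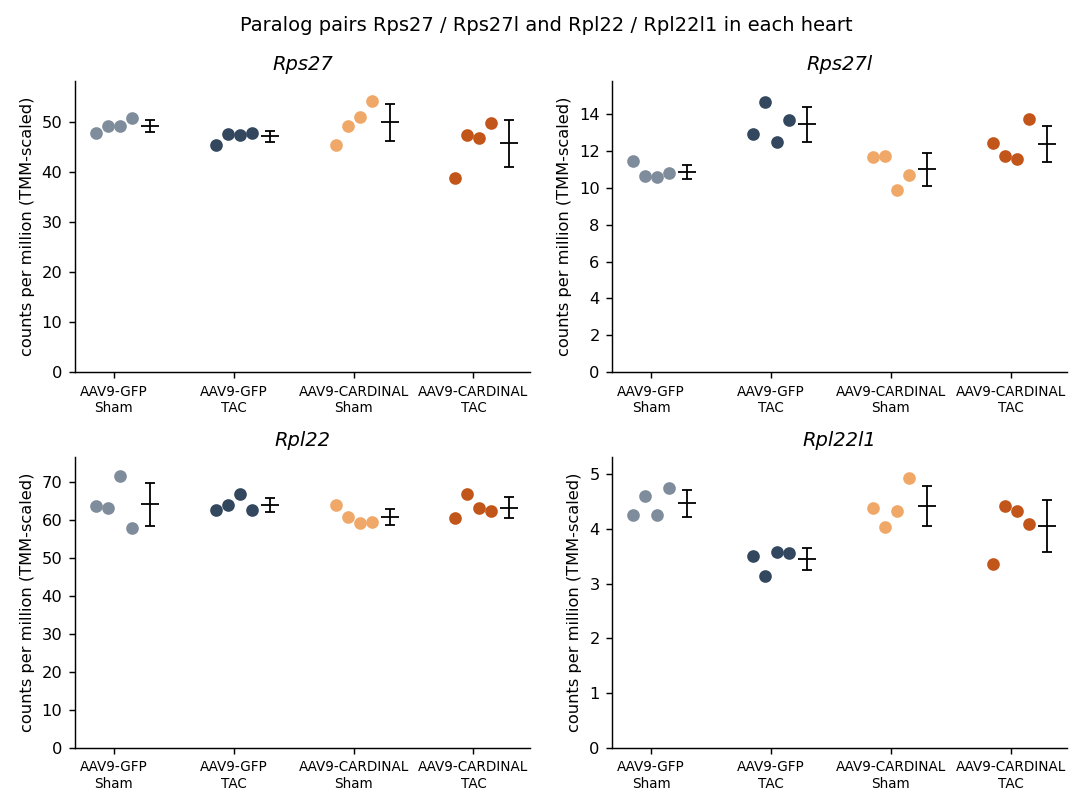
TMM-scaled CPM of Rps27, Rps27l, Rpl22 and Rpl22l1 in each of the 16 hearts, with 1 point for each mouse and the group mean and SD beside it. Rps27l is higher and Rpl22l1 lower in all 4 AAV9-GFP TAC hearts than in the AAV9-GFP Sham hearts, while Rpl22 overlaps between these groups.

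The remaining paralog pairs did not pass the test after TAC. Rpl10, a large-subunit protein that is added late in assembly, was at 59.7, 59.2, 56.8 and 58.2 CPM in AAV9-GFP Sham and at 54.5, 58.5, 54.9 and 59.7 CPM in AAV9-GFP TAC hearts. Rpl39, one of the smallest proteins of the large subunit, was at 12.1, 10.2, 11.5 and 9.53 CPM and at 9.56, 12.3, 13.4 and 10.1 CPM. Both overlapped between Sham and TAC, and their log2 fold changes were -0.040 and 0.068. Rps4x, an X-linked small-subunit protein, was at 89.2, 82.1, 94.1 and 82.9 CPM in Sham and at 79.8, 84.6, 86.05 and 88.7 CPM in TAC hearts (log2 fold change -0.038). Rpl36a was at 36.6, 32.1, 34.7 and 33.2 CPM in Sham and at 29.8, 31.4, 34.2 and 28.5 CPM in TAC hearts, with a log2 fold change of -0.14 and an edgeR adjusted p of 0.191. Its paralog Rpl36al, which falls outside the naming rule, was at 19.8, 19.2, 19.4 and 19.2 CPM and at 18.8, 19.1, 17.9 and 18.1 CPM (log2 fold change -0.070). Every TAC heart was below every Sham heart for Rpl36al, which did not pass the test (edgeR adjusted p = 0.538). The 95% intervals of these genes had 0.29 (Rpl39) as highest upper and -0.29 (Rpl36a) as lowest lower bound.

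The stalk of the large subunit, which recruits translation factors, is formed by Rplp0, Rplp1 and Rplp2. Rplp0 was at 235, 225, 232 and 225 CPM in AAV9-GFP Sham and at 225, 207, 216 and 230.2 CPM in AAV9-GFP TAC hearts. Rplp2 was at 87.5, 83.03, 89.8 and 86.1 CPM and at 82.6, 83.95, 85.7 and 81.4 CPM. Both overlapped between the groups, with log2 fold changes of -0.063 and -0.054. Rplp1 was at 89.2, 85.2, 90.01 and 85.4 CPM in Sham and at 93.1, 94.95, 95.5 and 99.6 CPM in TAC hearts, so that every TAC heart was above every Sham heart, but its log2 fold change of 0.13 (standard error 0.062) did not pass the test (edgeR adjusted p = 0.174). It passed without AAV9-CARDINAL TAC replicate 6 (adjusted p = 0.0293), and the adjusted p lay between 0.00575 and 0.515 over the alternatives. Rps6, the small-subunit protein phosphorylated by the S6 kinases downstream of mTOR, was at 94.8, 97.5, 91.2 and 98.5 CPM in Sham and at 89.7, 94.3, 88.9 and 91.7 CPM in TAC hearts (log2 fold change -0.067). Rpsa, a small-subunit protein also known as the laminin receptor, was at 109.9, 96.8, 91.9 and 103 CPM and at 117, 104, 107 and 112 CPM (log2 fold change 0.13, edgeR adjusted p = 0.137). Neither passed the test.

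Across the 75 ribosomal protein mRNAs without a call, 37 were above 0 and 38 below 0 after TAC in AAV9-GFP hearts, and 66 were within 0.1 of 0 on the log2 scale. The median was -0.0032 over the 48 tested genes of the large subunit and 0.0042 over the 31 tested genes of the small subunit, both close to 0. The middle of the 79 lay between -0.055 and 0.052 (quartiles), against -0.16 and 0.18 for all tested genes. The 75, a set chosen after the values had been seen, had a median coefficient of variation within groups of 5.33% (Rpl6 2.44% to Rpl39 11.1%). It was 7.54% over 6964 tested genes in the same range of levels, which were not matched in level gene by gene. The 4 called genes were at 10.2% (Rpl3), 9.33% (Rpl3l), 7.03% (Rps27l) and 8.37% (Rpl22l1). The groups of mice did not overlap for 4 of the 79 that were higher and 8 that were lower after TAC, against 10.1% and 10.2% of all tested genes. These values are relative to the bulk of genes. With library totals alone, an alternative chosen after the data had been seen, the median of all tested genes in AAV9-GFP TAC against Sham was 0.16 and that of the ribosomal protein mRNAs 0.16. On that scale 37 of the 79 were called, 36 higher and 1 lower, where 29.1% of all genes were called. The share of all counts taken by the 81 genes was 0.529% ± 0.00924 in AAV9-GFP Sham and 0.584% ± 0.0127 in AAV9-GFP TAC hearts (SD, n = 4 each).

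In AAV9-CARDINAL hearts, TAC changed none of the 79 tested ribosomal protein mRNAs at an adjusted p under 0.05 in edgeR, and DESeq2 also called 0. In that comparison 6.48% of all tested genes were called in edgeR, and 9.19% of the genes with an adjusted p in DESeq2. At an unadjusted p under 0.05 there were 12, all higher after TAC, where 10.4% of all tested genes were. Of the 79, 68 were above 0, with a median log2 fold change of 0.053 against -0.00047 for all tested genes. Without AAV9-CARDINAL TAC replicate 1 the median was 0.083. As the mRNAs of a library share its scaling, these 68 are not independent results. The 3 with the smallest p were Rpl9, a large-subunit protein, Rps28 and Rps27a, a small-subunit protein made as a fusion with ubiquitin. Rpl9 was at 63.9, 68.8, 61.98 and 62.4 CPM in AAV9-CARDINAL Sham and at 68.1, 71.8, 67.5 and 73.7 CPM in AAV9-CARDINAL TAC hearts. Its log2 fold change was 0.13 (standard error 0.043, edgeR adjusted p = 0.0927), and it was called, with an adjusted p of 0.0463, when pseudogene counts were added (range over the alternatives 0.0463 to 0.4). The values for Rps28 and Rps27a were 0.20 (adjusted p = 0.11) and 0.15 (adjusted p = 0.127). Without AAV9-CARDINAL TAC replicate 1, Rps13 was called and no other, and the share of all genes called in that fit was not computed. The mice of the groups did not overlap for 2 of the 79, Rps15 and Rps19, both higher after TAC, against 6.51% of all tested genes in that direction. Rps13, Rps15 and Rps19 were named after their values had been seen.

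The 4 genes called in AAV9-GFP hearts had smaller log2 fold changes in AAV9-CARDINAL hearts. They were selected by passing in AAV9-GFP hearts, and smaller changes in the other group can follow from that selection alone. None of these differences in response passed the test (edgeR adjusted p = 0.412 for Rpl3, 0.302 for Rpl3l, 0.685 for Rps27l and 0.564 for Rpl22l1). Rpl3l was at 123, 144, 119 and 136 CPM in AAV9-CARDINAL Sham and at 94.2, 124, 119 and 120.1 CPM in AAV9-CARDINAL TAC hearts. The lowest value, 94.2 CPM, was that of TAC replicate 1, the other 3 TAC hearts lay within the range of the Sham hearts, and the log2 fold change was -0.19 (standard error 0.096, edgeR adjusted p = 0.263). Rpl3 was at 44.2, 44.6, 40.7 and 36.01 CPM in Sham and at 55.8, 46.99, 41.9 and 49.2 CPM in TAC hearts, with the highest value again in TAC replicate 1 (log2 fold change 0.23, standard error 0.093, adjusted p = 0.166). Rps27l was at 11.7, 11.8, 9.90 and 10.7 CPM and at 12.4, 11.8, 11.6 and 13.8 CPM (log2 fold change 0.17, adjusted p = 0.197). Rpl22l1 was at 4.38, 4.04, 4.32 and 4.93 CPM and at 3.36, 4.42, 4.33 and 4.10 CPM (log2 fold change -0.12, adjusted p = 0.583). Each had the same sign as in AAV9-GFP hearts and none passed the test, which does not show that it failed to change. Without TAC replicate 1 the log2 fold changes were 0.15 for Rpl3, -0.11 for Rpl3l, 0.17 for Rps27l and -0.038 for Rpl22l1.

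In AAV9-CARDINAL hearts, Rps27 was at 45.4, 49.2, 50.9 and 54.1 CPM after Sham and at 38.9, 47.4, 46.8 and 49.8 CPM after TAC. Its log2 fold change of -0.13 was the lowest among the 75 mRNAs that were not called in AAV9-GFP hearts, and TAC replicate 1 was the lowest heart. Rpl22 was at 63.8, 60.7, 59.2 and 59.4 CPM after Sham and at 60.4, 66.8, 63.2 and 62.3 CPM after TAC. Rpl10 was at 50.3, 54.3, 50.4 and 52.8 CPM after Sham and at 56.3, 56.96, 53.6 and 56.4 CPM after TAC. Rpl39 was at 9.17, 10.8, 9.51 and 9.93 CPM after Sham and at 9.73, 11.2, 10.7 and 10.04 CPM after TAC. All of these overlapped between Sham and TAC. Rps4x was at 82.2, 89.3, 81.2 and 77.1 CPM after Sham and at 84.9, 92.6, 86.8 and 87.98 CPM after TAC. Rpl36a was at 28.1, 30.9, 29.4 and 33.1 CPM after Sham and at 30.1, 32.5, 33.7 and 29.3 CPM after TAC. Rpl36al was at 16.8, 18.9, 17.4 and 20.7 CPM after Sham and at 16.3, 18.8, 17.9 and 19.2 CPM after TAC. These overlapped as well, with log2 fold changes of 0.094, 0.050 and -0.029. Of the stalk proteins, Rplp0 was at 213, 228, 208 and 204 CPM after Sham and at 204, 220.4, 215 and 233 CPM after TAC. Rplp1 was at 84, 82.4, 79.8 and 77.6 CPM after Sham and at 82.2, 85.2, 83.4 and 104 CPM after TAC. Rplp2 was at 77.2, 83.5, 78.4 and 88.6 CPM after Sham and at 79.6, 77.5, 88.8 and 87.8 CPM after TAC. The log2 fold changes of these 3 were 0.031, 0.13 and 0.026, and Rplp1 was highest in TAC replicate 6, apart from the other 3 TAC hearts. Rps6 was at 84.3, 106, 87.1 and 95.9 CPM after Sham and at 83.8, 104, 92.8 and 92.5 CPM after TAC. Rpsa was at 98.96, 102, 96.9 and 104 CPM after Sham and at 105, 102, 105 and 115 CPM after TAC. Sham and TAC hearts overlapped for both, and neither they nor the genes before them passed the test.

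Between the viruses in TAC hearts, no ribosomal protein mRNA passed the test in edgeR, and 0.101% of all tested genes did. At an unadjusted p under 0.05 there were 5, against 15% of all tested genes, and DESeq2 called 1, Rpl3l, of the 78 to which it gave an adjusted p, against 4.75% of 9010 such genes. Rpl3l was 30.9% higher with AAV9-CARDINAL (log2 fold change 0.39, standard error 0.096, 95% confidence interval 0.18 to 0.59), with an edgeR adjusted p of 0.0939. The adjusted p was 0.00659 with DESeq2 and 0.0122 in edgeR without AAV9-CARDINAL TAC replicate 1, and it lay between 0.00659 and 0.55 over all alternatives. In the same comparison the log2 fold change was -0.26 for Rpl3 (adjusted p = 0.206), -0.12 for Rps27l (adjusted p = 0.476) and 0.23 for Rpl22l1 (adjusted p = 0.304). The mice did not overlap for 2, Rpl19 and Rpl37, named after their values had been seen and both lower with AAV9-CARDINAL, against 3.19% of all tested genes in that direction. Over all 79 the median was -0.011, against -0.0065 for all tested genes.

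In Sham hearts, none of the 79 differed between the viruses at an adjusted p under 0.05 in edgeR or in DESeq2, and 0.0119% and 0.0237% of all tested genes did. At an unadjusted p under 0.05 there were 6, all lower with AAV9-CARDINAL, against 1.14% of all tested genes in that direction. The 3 with the smallest p were Rpl10 (log2 fold change -0.17, unadjusted p = 0.00121 in edgeR), Rpl36a (-0.17) and Rpl31 (-0.15), with an adjusted p of 1 for each. All 4 AAV9-CARDINAL Sham hearts were below all 4 AAV9-GFP Sham hearts for Rpl10 and for Rplp1, Rps10 and Rps16, the last 2 named after their values had been seen, against 1.16% of all tested genes that were lower without overlap. Altogether 73 of the 79 were below 0, with a median of -0.074 against -9.8e-05 for all tested genes. A median deviation from each gene's mean over the 16 mice was also taken in each mouse. It covered the 75 mRNAs not called after TAC in AAV9-GFP hearts, a set chosen after the values had been seen. The 4 AAV9-GFP Sham hearts lay between 0.013 and 0.029 on the log2 scale and the AAV9-CARDINAL Sham hearts at -0.074, 0.025, -0.093 and -0.043. Replicate 2 lay within the range of the AAV9-GFP hearts, so the groups overlapped. The mRNAs of a library share its scaling, and 73 genes below 0 are not 73 independent results. The same AAV9-CARDINAL Sham hearts entered the TAC comparison in AAV9-CARDINAL hearts, with its median of 0.053, so these shifts are not separate results.

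**Figure D4:**
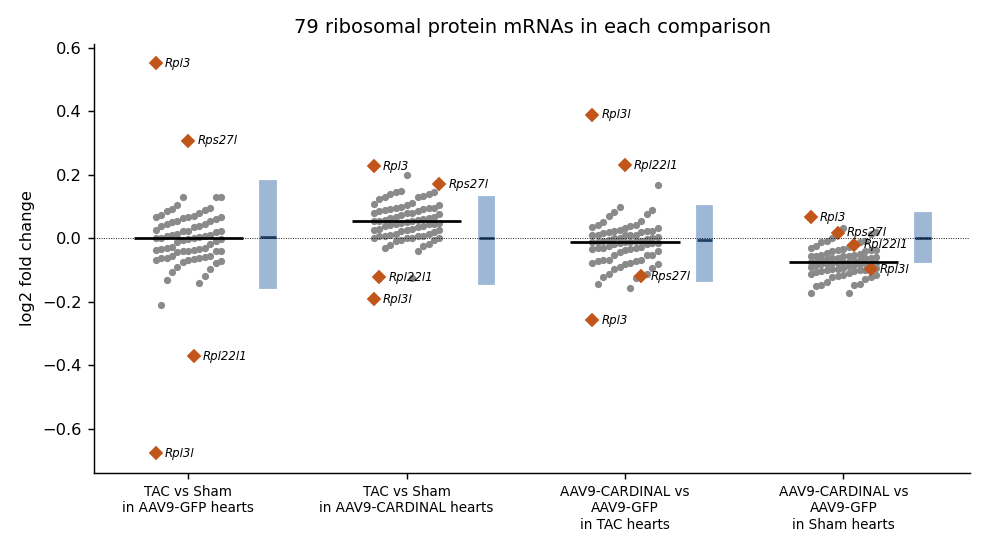
Log2 fold change of each of the 79 tested ribosomal protein mRNAs in 4 comparisons of groups. Grey points are single genes, orange diamonds are Rpl3, Rpl3l, Rps27l and Rpl22l1, black lines are the medians of the 79, and the blue boxes and dark lines give the quartiles and median of all 16857 tested genes. The 4 diamonds were selected by their calls after TAC in AAV9-GFP hearts, so their wide spread in that comparison is set by the selection. The black line lies below 0, at -0.074, in Sham hearts.

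The ratio of Rpl3l to Rpl3 counts in a mouse needs no library size and is therefore free of the scaling. Pseudogene counts are not part of it. There were 3.70, 3.20, 3.59 and 3.61 Rpl3l counts per Rpl3 count in AAV9-GFP Sham hearts and 1.44, 1.30, 2.04 and 1.35 in AAV9-GFP TAC hearts. In AAV9-CARDINAL Sham hearts the ratio was 2.78, 3.23, 2.92 and 3.77, and in AAV9-CARDINAL TAC hearts 1.69, 2.63, 2.85 and 2.44. The means were 3.53 ± 0.223, 1.53 ± 0.343, 3.18 ± 0.442 and 2.40 ± 0.504 in that order (SD, n = 4 each), and only the AAV9-GFP TAC hearts were separate from their Sham hearts. After TAC in AAV9-GFP hearts the log2 ratio fell by 1.23 (fold 0.428, exact two-sided permutation p = 0.0286, the smallest that 4 mice against 4 allow). The difference in AAV9-CARDINAL hearts was -0.42 (exact permutation p = 0.0571), with 1 of 16 pairs of mice in the opposite order. In TAC hearts the ratio was 1.57-fold higher with AAV9-CARDINAL (log2 difference 0.65, exact permutation p = 0.0571), with 15 of 16 pairs of mice in that order, and in Sham hearts the log2 difference was -0.16 (exact permutation p = 0.257).

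**Figure D5:**
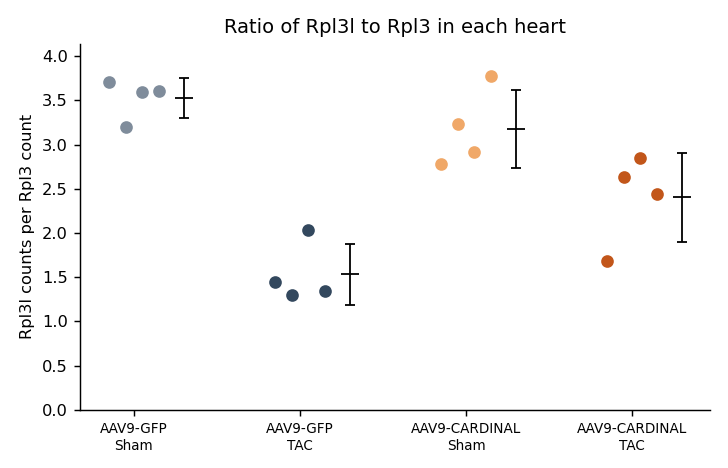
Number of Rpl3l counts per Rpl3 count in each of the 16 hearts, with 1 point for each mouse and the group mean and SD beside it. AAV9-GFP TAC hearts lie between 1.30 and 2.04, below all AAV9-GFP Sham hearts, and the AAV9-CARDINAL TAC hearts lie between 1.69 and 2.85.

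The response of the ratio to TAC differed between the viruses by 0.81 on the log2 scale (1.75-fold, exact two-sided permutation p = 0.0155 over 4900 labelings). Virus labels were permuted within each surgery, so the test takes as its null that the virus made no difference after either surgery. With adjustment over the 5 comparisons of this ratio, the p was 0.0714 for this difference, for both TAC responses and for the comparison of TAC hearts, so none passed after adjustment. The hearts that crossed between the viruses were AAV9-GFP TAC replicate 4 (2.04) and AAV9-CARDINAL TAC replicate 1 (1.69). Without AAV9-CARDINAL TAC replicate 1, the difference in response was 0.97 (exact permutation p = 0.00898) and the TAC response in AAV9-CARDINAL hearts was -0.26 (exact permutation p = 0.143), whereas without replicate 5 it was -0.51 (exact permutation p = 0.0286). In the model over all genes, the difference in response was 0.48 for Rpl3l (standard error 0.14, edgeR adjusted p = 0.302) and -0.32 for Rpl3 (standard error 0.13, edgeR adjusted p = 0.412). No ribosomal protein mRNA passed for the difference in response in edgeR, where 0.0119% of all tested genes did and 4 of the 79 had an unadjusted p under 0.05, against 10.2% of all tested genes. The third smallest p was that of Rpl10 (log2 difference 0.14). DESeq2 called 1, Rpl3l, of the 58 to which it gave an adjusted p, against 5.53% of 2476 such genes, with an adjusted p of 0.0264, which lay between 0.0264 and 0.569 over the alternatives.

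Markers of cell types moved with the groups as well. The summed level of the 8 ventricular cardiomyocyte markers was between 41400 and 41900 CPM in AAV9-GFP Sham, between 29800 and 35860 CPM in AAV9-GFP TAC, between 39570 and 43400 CPM in AAV9-CARDINAL Sham and between 35890 and 40280 CPM in AAV9-CARDINAL TAC hearts. After TAC in AAV9-GFP hearts, 6 of the 8 were lower at an adjusted p under 0.05, with a median log2 fold change of -0.30. After TAC in AAV9-CARDINAL hearts, 1 of the 8 was higher and 1 was lower, with a median of -0.051. The 6 fibroblast markers summed to between 436 and 495 CPM in AAV9-GFP Sham and between 754 and 977 CPM in AAV9-GFP TAC hearts, where 3 of the 6 were higher and none was lower. In AAV9-CARDINAL hearts they summed to between 431 and 466 CPM after Sham and, after TAC, to 811 CPM in replicate 1 and to between 439 and 477 CPM in the other 3. There 1 of the 6 was higher after TAC and none was lower. In AAV9-GFP hearts Rpl3l thus fell as cardiomyocyte markers did and Rpl3 rose as fibroblast markers did, and AAV9-CARDINAL TAC replicate 1 was the heart of its group with the lowest cardiomyocyte and the highest fibroblast sum. Their part in the results for Rpl3 and Rpl3l was not tested.
Among the other marker lists, 1 of 5 endothelial markers was higher after TAC in AAV9-GFP hearts, and none of the tested leukocyte (5), smooth muscle (3), erythroid (3), atrial (1) or skeletal muscle (1) markers was called. No adipocyte marker passed the filter on low counts.

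Other genes of the pathway were read from the same model. Of 7 ribosomal protein genes outside the naming rule, such as Rps3a1 and Fau, none was called in any comparison, and their median log2 fold change after TAC in AAV9-GFP hearts was -0.047. Of 30 genes of ribosome biogenesis, 2 rose and 1 fell after TAC in AAV9-GFP hearts, where 17.4% of all tested genes were called in either direction, with a median log2 fold change of 0.13 against 0.0050 for all tested genes. Tsr1, which acts in the assembly of the small subunit, rose by 0.52 on the log2 scale, Gtpbp4, which acts in that of the large subunit, rose by 0.24, and Polr1a, the largest subunit of RNA polymerase I, fell by 0.40 (edgeR adjusted p = 0.00677, 0.0197 and 0.00441). In AAV9-CARDINAL hearts, where 6.48% of all tested genes were called, 2 of the 30 fell, Polr1a by 0.41 and Polr1b by 0.41 (adjusted p = 0.0136 and 0.0107 in edgeR). Of 15 regulators of ribosomal protein mRNA and ribosome partners, Myc and Drg1 rose after TAC in AAV9-GFP hearts, by 0.88 and 0.22, and Eif4ebp2, a repressor of cap-dependent translation, fell by 0.20 (edgeR adjusted p = 0.0462, 0.0127 and 0.00599). Eif4ebp2 also fell in AAV9-CARDINAL hearts, by 0.17 (adjusted p = 0.0413 in edgeR), and Larp1, which binds TOP mRNAs, was at -0.046 and -0.0061 after TAC in AAV9-GFP and AAV9-CARDINAL hearts, without passing the test. Of 14 further TOP mRNAs, such as those of elongation factors, 5 rose and 3 fell after TAC in AAV9-GFP hearts (median -0.094), against 17.4% of all tested genes called there, and 2 rose in AAV9-CARDINAL hearts (median 0.063), against 6.48%. None of these lists held a call between the viruses.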

How the data were processed

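Poly(A)-selected RNA of the apex of 16 mouse hearts was sequenced. The authors deposited raw read counts per gene, 1 column for each mouse, with Ensembl gene identifiers. The submitters' processing notes name FastQC, HISAT2 2.1.0, edgeR 3.26.1 and GRCm38. The counting program, its annotation and its handling of strand and of reads that map more than once are not given in the sources used here. Groups were taken from the genotype and treatment labels. Each sample is labelled as a mouse of its own.

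Of the 55573 genes, 55480 were named with GENCODE M21. Genes were kept by filterByExpr of edgeR (minimum count 10, minimum total 15), which left 16857, and TMM factors were computed. A quasi-likelihood model with 1 mean for each group was fitted to all 16 mice (edgeR 4.0.16, R 4.3.3), with 12 residual degrees of freedom, and p-values were adjusted by Benjamini-Hochberg over all tested genes. Standard errors were computed as the absolute log2 fold change divided by the square root of the F statistic of the test. The 95% confidence intervals were built from them with the t distribution. They need not match the p of the test exactly, as for Rpl22l1. Total counts of 16441997 to 21904589 per mouse set the counting precision. Replicates of a group differed by more than sampling noise (chi-square per degree of freedom 5.32 to 16.0), so none was taken for a repeated library. The Rpl3l to Rpl3 ratio was tested by exact two-sided permutation of the log2 ratio with 0.5 added to each count, and for the difference in response virus labels were permuted within each surgery. The scripts were tested on simulated data. Length per gene is that of 1 representative transcript. Sharing is the part of the 50-base stretches of that transcript found in any transcript of another gene.

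Values in every mouse are given for the paralog pairs, the stalk proteins, Rps6 and Rpsa, and for the genes called in a comparison, at most 10, or, where none was called, for the 3 with the smallest p by their fold changes. Per-mouse values of Rpl9 were added, and 1 gene that the rule names is not reported here. The genes and lists were chosen with earlier results of these data known. Alternatives were DESeq2 1.42.0, other scalings, filters and offsets, a robust fit, fits to 8 mice, a replicate block and each mouse left out in turn.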

Additional observations from a re-analysis of the deposited data

Results flagged for a closer look

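In 76 groups of 4 hearts, the highest or lowest heart was compared with the rest by Dixon's ratio, and 5 exceeded the 95% critical value, where chance gives about 1 group in 20. Rpl3l in AAV9-CARDINAL TAC replicate 1 was low at 94.2 CPM (Dixon's ratio 0.850). Rpl22l1 in AAV9-GFP TAC replicate 3 was low at 3.15 CPM (0.836), and Rps27 in AAV9-GFP TAC replicate 1 was low at 45.4 CPM (0.860). AAV9-CARDINAL TAC replicate 6 was high for Rplp1 at 103.5 CPM (0.860) and for the share of counts taken by the 81 genes at 0.566% (0.943). The response of the Rpl3l to Rpl3 ratio to TAC differed between the viruses by 0.81 on the log2 scale (exact two-sided permutation p = 0.0155, and 0.0714 after adjustment over 5 comparisons). In these data AAV9-CARDINAL TAC replicate 1 also had the highest level of CARDINAL, 93.9 CPM, and the highest fibroblast marker sum of its group, 811 CPM. The part of these in its Rpl3l level was not tested.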

How the results depend on the processing

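The calls of Rpl3, Rpl3l and Rps27l after TAC in AAV9-GFP hearts kept their direction and an adjusted p under 0.05 in the 29 fits tried, though Rpl3l alone also changed by at least 1.5-fold (highest adjusted p 0.00417, 0.00492 and 0.043 in edgeR or DESeq2). Rpl22l1 was lost with DESeq2 (0.0559), with library totals alone (log2 fold change -0.21, 0.128) and without AAV9-GFP TAC replicate 3 (-0.33, 0.0528). The number of ribosomal protein mRNAs called was 1 (Rpl3l) when a change of at least 1.5-fold was asked for, 37 with library totals alone, and 3 to 5 with 1 mouse left out. In AAV9-CARDINAL hearts it was 1 (Rpl9) with pseudogene counts added and 0 to 1 with 1 mouse left out. Between the viruses in TAC hearts it was 1 (Rpl3l) with DESeq2 and 0 to 1 with 1 mouse left out. It stayed at 0 in Sham hearts with any mouse left out, and for the difference in response it was 1 (Rpl3l) with DESeq2 and 0 with any mouse left out. The share of all genes called was not computed for the 1.5-fold change, for pseudogene counts added or for 1 mouse left out. With library totals alone the median was 0.16 after TAC in AAV9-GFP hearts, -0.10 between the viruses in TAC hearts and -0.066 for the difference in response, with all-gene medians of 0.16, -0.098 and -0.12. Signs of genes that were not called turned on that scale for Rpl22 (0.16), Rpl10 (0.12), Rps27 (0.097), Rps4x (0.12), Rpl36a (0.018), Rplp0 (0.096), Rplp2 (0.11) and Rps6 (0.093), and Rplp1 (0.29, adjusted p = 0.00575) and Rpsa (0.29, adjusted p = 0.00385) passed the edgeR test. The value of Rpl22 after TAC, close to 0, also turned with upper-quartile factors (0.0017), with a minimum of 1 CPM (0.0018), with the replicate block (0.0050) and with a length offset (0.038). With 1 mouse left out it lay between -0.048 and 0.054, and that of Rps4x between -0.066 and 0.00064. In Sham hearts Rpl22l1 turned with a length offset (0.029) and library totals (0.013) and lay between -0.072 and 0.021 with 1 mouse left out, and Rps27l turned with pseudogene counts added (-0.00053) and lay between -0.015 and 0.067. The log2 ratio of Rpl3l to Rpl3 differed by -1.37 in AAV9-GFP hearts when group medians were compared (exact permutation p = 0.0571). With 1 mouse left out it ranged from -1.37 to -1.15 in AAV9-GFP hearts, from -0.51 to -0.26 in AAV9-CARDINAL hearts, from 0.56 to 0.81 between the viruses in TAC hearts and from -0.24 to -0.097 in Sham hearts, and for the difference in response from 0.71 to 0.97 (exact permutation p = 0.00694 to 0.0322). With the replicate block, 4 ribosomal protein mRNAs were called after TAC in AAV9-GFP hearts and 0 in the other comparisons. The ratio, from mice that share a number, differed by -1.22, -0.62, 0.30, -0.16 and 0.47 in the same order. Only numbers found in every group compared were used. For -0.62, 0.30 and 0.47 these were numbers 1 and 4 alone. The values 0.30 and 0.47 thus rest on few mice, among them both hearts that crossed between the viruses. Deviations of same-numbered mice correlated at -0.040 to 0.21 (16 pairs, median 0.054, 4 above 0.1), against a median of -0.013 and 4 of 80 above 0.1 for other pairs. The 4 same-numbered pairs above 0.1, at 0.10, 0.13, 0.15 and 0.21, were all between mice numbered 1, among them AAV9-CARDINAL TAC replicate 1. As not every pair was above 0.1, the numbers were not treated as pairs. That rule does not address a factor shared by the mice numbered 1 only, which was not tested. The cause of the changes with the replicate block was not tested either. At the depth of these libraries a gene with no count is limited to 3 counts, and Rpl22l1, with 75 to 97 counts, is the least precisely counted of the 4.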
